A study of Danio rerio with 3 samples.

Results

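The genes described here encode the subunits of the receptors for glutamate, GABA and glycine, taken as all gene symbols of the deposited tables that begin with gria, grik, gabr, glra or glrb, or with grin, grid or grm and a digit, and that reached at least 20 unique molecular identifiers (UMIs, counted RNA molecules) over the 3 libraries. Of 27771 genes in the tables, 69 matched the names and 64 of these reached 20 UMIs. A pair of the 64, with 23 and 80 UMIs, encode proteins that interact with a receptor and were left out of the counts below. The remaining 62 comprised 36 glutamate receptor genes, 20 GABA receptor genes and 6 glycine receptor genes. The threshold fell between gabra3 with 20 UMIs and grik1b with 18 UMIs, and gabrp, glra2, grin3a and grin3ba were also below it with 16, 15, 6 and 5 UMIs.

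Single-cell RNA sequencing was performed on Gfap-positive cells sorted from the retinas of larval zebrafish at 9 days post fertilization, with 1 library for each of 3 groups. The methods of the study give this age for all groups, but its results text gives 6 days post fertilization for the uninjured larvae. All larvae carried the glial reporter background Tg(her4.1:dRFP/gfap:GFP), and all of them, controls included, were held in 10 mM metronidazole for 48 h from 6 days post fertilization and collected 3 days post injury. The no-ablation group carried the reporters alone. The Lws2-ablation group also carried lws2:nfsb-mCherry, in which nitroreductase in long wavelength sensitive cones makes metronidazole toxic to those cones, and the Sws2-ablation group carried sws2:nfsb-mCherry, which does the same in short wavelength sensitive cones. How many larvae were pooled for each library is not given in the sources used here.

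With 1 library per group no difference has a replicate check, so no test was made. Levels are given as CPM, the UMIs of a gene per 1000000 UMIs of the same cells, with 95% intervals that cover counting error only. Kept cells numbered 8190 without ablation, 10430 after Lws2 ablation and 7851 in the Sws2 library, with median depths of 4390.5, 5905 and 5034 UMIs. Between 17 and 29 cell barcodes were shared by each pair of libraries. EGFP, the reporter used for the sort, was found in 5575 and 5327 of the kept cells of the first 2 libraries but in only 40 cells of the Sws2 library, at 2.21 CPM against 1090 and 736 CPM, so that library is called the library labelled Sws2. The study names 2 versions of the library kit without saying which library used which, and kit and condition cannot be told apart here.

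Glutamate acts on ion channels of the AMPA, kainate and NMDA types and on metabotropic receptors that signal through G proteins, whereas GABA and glycine act on chloride channels made of several subunits. In the retina, photoreceptors and bipolar cells release glutamate, and amacrine cells release GABA or glycine. ON bipolar cells sense photoreceptor glutamate through the metabotropic receptor mGluR6, and GABA receptors built from rho subunits are typical of bipolar cell terminals. Müller glia, the main glial cells of the retina, take up glutamate and convert it to glutamine with glutamine synthetase, which is encoded in zebrafish by glula and glulb.

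Cells were grouped into 28 clusters on other genes (the receptor genes were kept out of the clustering features) and named from markers into 8 classes. The classes held 12301 resting Müller glia-like cells, 1445 cycling progenitor-like cells, 2776 neurogenic precursor-like cells, 955 photoreceptor lineage-like cells, 3313 bipolar-like cells, 969 amacrine-like cells, 485 ganglion-like cells and 1079 untyped neurons. The untyped neurons are clusters 14 and 24, which held 10 and 8 general neuron markers and 3 amacrine markers each. Cluster 14 lost the amacrine name only by a rule added after the clusters were seen, and cluster 24 tied with 3 oligodendrocyte markers. Untyped neurons held gad2 at 314 CPM against 186 CPM in amacrine-like cells and slc32a1 at 296 against 323 CPM, but tfap2a at 39.8 against 456 CPM. They also held the vesicular glutamate transporter genes slc17a6a, at 52.5 against 0 CPM, and slc17a6b, at 82.7 against 5.97 CPM. Counts that set untyped neurons apart from amacrine-like cells therefore depend on this naming. No cluster met the rule for horizontal cells. The untyped neurons made up 2.59% of kept cells without ablation, 8.20% in the Lws2 library and 0.153% in the library labelled Sws2, where they numbered 12 cells. Resting glia-like cells made up 67.6%, 32.3% and 43.2%. A level summed over all kept cells therefore moves with these shares, and levels are given within classes first.

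Receptor RNA was densest in bipolar-like, amacrine-like and ganglion-like cells and in untyped neurons. Summed over the 62 genes it reached 1998, 1235 and 954 CPM in bipolar-like cells of the no-ablation library, the Lws2 library and the library labelled Sws2, and 1669, 1819 and 2191 CPM in ganglion-like cells. Amacrine-like cells held 2034, 754 and 640 CPM and untyped neurons 1629, 1640 and 2192 CPM. Photoreceptor lineage-like cells, at 313, 189 and 109 CPM, were near resting glia-like cells, at 298, 171 and 147 CPM. Cycling progenitor-like cells held the least, with 37.0, 30.5 and 12.1 CPM. A receptor gene was counted as led by a class where its CPM, summed over the libraries, was at least 2 times that of the next class with 1 CPM added to both. By this rule 27 of the 62 genes (43.5%) were led by a single class, beside 14.3% of the 18546 genes with at least 20 UMIs. Untyped neurons led 10 of them (16.1%, beside 4.73% of all genes), bipolar-like cells 8 (12.9%, beside 1.7%), ganglion-like cells 8 (12.9%, beside 0.987%) and photoreceptor lineage-like cells 1, gabra6a (1.61%, beside 2.91%). No receptor gene was led by resting glia-like cells (background 1.91%), by amacrine-like cells (0.631%), by cycling progenitor-like cells (0.41%) or by neurogenic precursor-like cells (1%).

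The classes differed likewise in how many receptor genes they held at 10 CPM or more with the 3 libraries summed. Untyped neurons held 36 of 62 at that level (58.1%, beside 42.6% of all genes), ganglion-like cells 28 (45.2%, beside 41.1%) and amacrine-like cells 22 (35.5%, beside 34.9%). Bipolar-like cells held 13 (21.0%, beside 34.6%), photoreceptor lineage-like cells 4 (6.45%, beside 32.1%) and resting glia-like cells 2 (3.23%, beside 34.3%). In neither progenitor class did a member reach 10 CPM over the summed libraries, beside 26.6% of all genes in cycling and 30.9% in neurogenic precursor-like cells. In the control library alone, grin1b exceeded it in the latter. Over all classes, 45 of the 62 reached 10 CPM in at least 1 (72.6%, beside 55.3% of all genes).

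**Figure D1:**
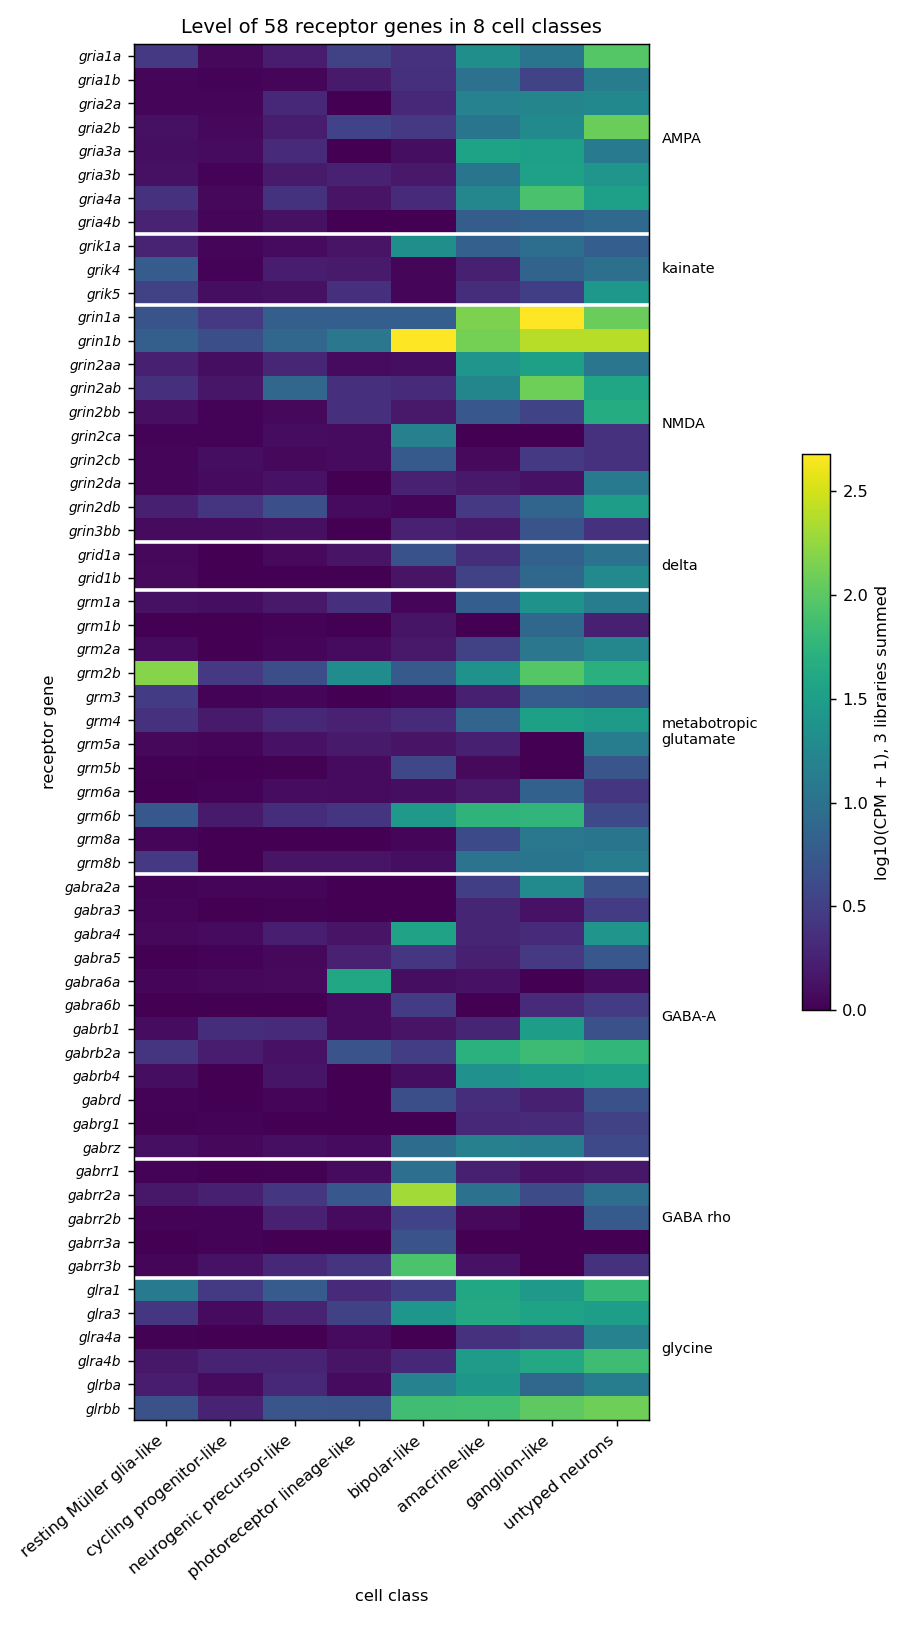
Levels of 58 of the 62 receptor genes (rows, by family) in 8 cell classes (columns), as log10 of CPM plus 1 with the counts of the 3 libraries summed. In the glial column grm2b stands out, the bipolar column carries grin1b and gabrr2a, and the widest spread of genes lies in the ganglion-like and untyped columns.

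Resting Müller glia-like cells carried 1 receptor gene at a high level, grm2b, a copy of the gene for the metabotropic glutamate receptor mGluR2, which inhibits adenylyl cyclase. Its level was 227 CPM (221 to 232, 5934 UMIs) without ablation, 103 CPM (98.7 to 108, 2127 UMIs) after Lws2 ablation and 108 CPM (103 to 112, 1909 UMIs) in the library labelled Sws2. The control library stood apart from both ablation libraries, whose intervals overlapped each other. The log2 ratio to the control was −1.14 (−1.21 to −1.06) in the Lws2 library and −1.07 (−1.15 to −1.0) in the library labelled Sws2. With every cell thinned to 1000 UMIs, 20.2% (19.1 to 21.3) of control resting glia-like cells had a grm2b UMI. The same share was 9.77% (8.76 to 10.9) for the Lws2 library and 8.85% (7.87 to 9.92) for the library labelled Sws2. The unthinned shares were 57.6%, 36.5% and 31.7%, and 186, 189 and 334 shallower cells were left out. In bipolar-like cells the thinned share was 0.40% (0.21 to 0.70). The difference between libraries was no longer 2-fold with the libraries merged without integration, where the log2 ratios were −0.87 and −0.67.

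The level of grm2b also varied among the 7 clusters of resting glia-like cells. Cluster 3 held the most in each library, with 323 CPM without ablation, 214 CPM in the Lws2 library and 210 CPM in the library labelled Sws2. Cluster 2 held 91.4, 21.1 and 32.8 CPM and cluster 8 held 84.6, 18.8 and 29.9 CPM. Cluster 3 numbered 930, 434 and 230 cells in these libraries and cluster 8 numbered 127, 391 and 689 cells. The grm2b level of the whole class therefore moves with the mix of clusters too. All 7 clusters were lower in both ablation libraries than in the control, although in cluster 17 the interval of the Lws2 ratio spanned no difference, with a log2 ratio of −0.15 (−0.49 to 0.17). The size of the difference was uneven, since it was −0.59 (−0.75 to −0.44) in cluster 3 and −2.12 (−2.50 to −1.74) in cluster 2 on the log2 scale after Lws2 ablation.

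**Figure D2:**
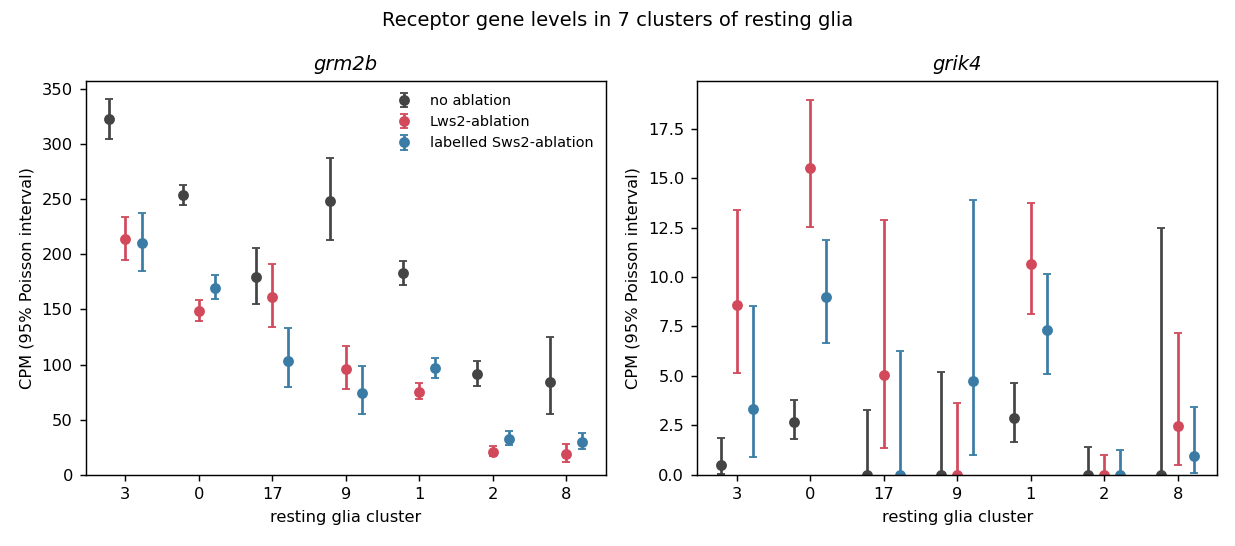
CPM of grm2b and of grik4 in the 7 clusters of resting Müller glia-like cells, with 1 point per library and 95% counting intervals. The control points for grm2b lie above both ablation libraries in each cluster, and the control points for grik4 lie below them in clusters 0 and 1.

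Because glula marks Müller glia and its RNA appeared in every class, grm2b was set beside it. Resting glia-like cells held 12.6 grm2b UMIs per 1000 glula UMIs (12.3 to 12.9) without ablation, 11.7 (11.2 to 12.2) in the Lws2 library and 21.5 (20.6 to 22.5) in the library labelled Sws2. The lower grm2b level thus came with a like lower glula level after Lws2 ablation, where glula itself was 8803 CPM against 18013 CPM. In the library labelled Sws2 glula was lower still, at 4999 CPM. Other glial genes of these cells did not fall as glula did. In the control, Lws2 and labelled Sws2 libraries slc1a2b stood at 2748, 2248 and 1923 CPM and rlbp1a at 3131, 3714 and 2639 CPM. The gene gfap stood at 361, 445 and 316 CPM. In 18 of 21 pairs of another class and a library, the interval of the grm2b to glula ratio overlapped that of the resting glia-like cells of the same library. Wide intervals overlap easily where few UMIs were counted, so this count does not show that the ratios were alike. Among the 18 are the 12 untyped neurons of the library labelled Sws2, which held no grm2b UMI. In ganglion-like cells, where grm2b reached 181, 58.6 and 63.5 CPM, the ratio was 13.4, 13.1 and 21.5. In photoreceptor lineage-like cells grm2b stood at 71.5, 7.36 and 10.3 CPM and the ratio at 13.6, 10.5 and 20.1. The exceptions were control bipolar-like cells and cycling progenitor-like cells after Lws2 ablation, both lower, and untyped neurons after Lws2 ablation, which were higher at 47.8 (40.9 to 55.6). Among the glial clusters the ratio was not uniform either, since cluster 8 had 6.35, 3.17 and 8.74 and cluster 9 had 27.4, 25 and 37.5. The high value of the untyped neurons rested on cluster 14, with 63.5 (54.1 to 74.0) and 172 grm2b UMIs at 64.6 CPM.

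**Figure D3:**
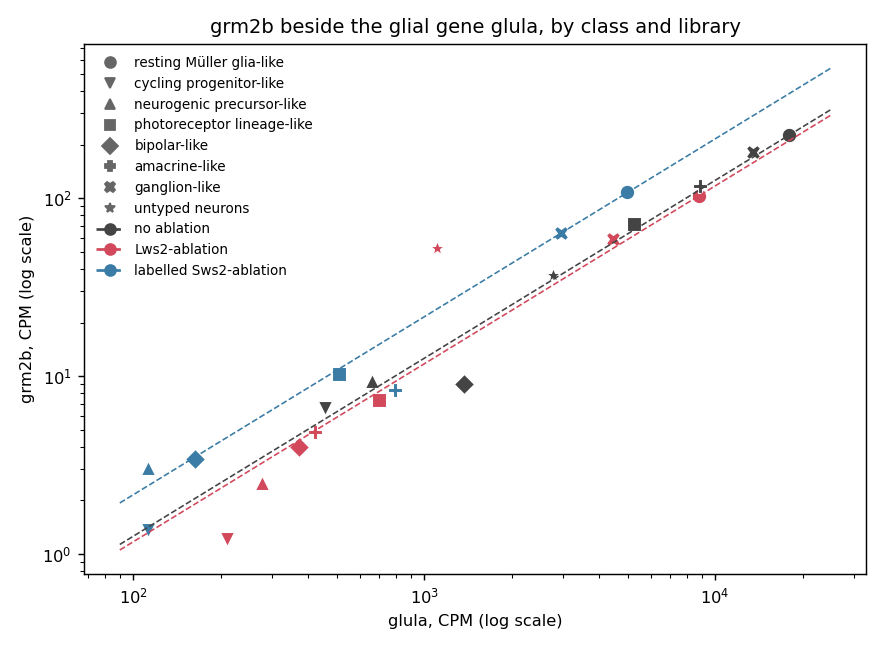
CPM of grm2b (vertical, log axis) against CPM of glula (horizontal, log axis), with 1 point per cell class and library and a dashed line at the ratio of resting glia-like cells of each library. Most points lie near the line of their own library, and the untyped neurons of the Lws2 library lie above theirs, at 47.8 grm2b UMIs per 1000 glula UMIs. The 12 untyped neurons of the library labelled Sws2 held no grm2b UMI and are not drawn.

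Other receptor genes of the resting glia-like cells were low, and grik4 was higher in the ablation libraries. For grik4, a kainate receptor subunit of the high affinity kind, the level was 1.91 CPM (1.42 to 2.52, 50 UMIs) without ablation, 8.72 CPM (7.49 to 10.1, 180 UMIs) after Lws2 ablation and 5.24 CPM (4.23 to 6.42, 93 UMIs) in the library labelled Sws2. The 3 intervals did not overlap, and the log2 ratio to the control was 2.19 (1.73 to 2.67) and 1.46 (0.95 to 1.98). In cluster 0 grik4 stood at 2.67, 15.5 and 9.00 CPM, in cluster 1 at 2.89, 10.7 and 7.31 CPM, and in cluster 2 no UMI of it was found in any library. Bipolar-like cells held 1 UMI of grik4 over all libraries.

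A second metabotropic gene of the same group as grm2b, grm3, stood at 3.32 CPM (87 UMIs), 1.26 CPM (26 UMIs) and 0.62 CPM (11 UMIs) in these cells, the control again highest. In contrast, glra1, a glycine receptor alpha subunit, held 12.7 CPM (11.4 to 14.2), 12.1 CPM (10.6 to 13.7) and 9.13 CPM (7.78 to 10.6), so the control and Lws2 intervals overlapped. After thinning, glra1 was found in 1.25% of resting glia-like cells and 0.20% of bipolar-like cells (5.44% and 0.48% unthinned). The glycine receptor beta gene glrbb was lower after ablation, at 6.30, 1.94 and 1.80 CPM. Of 27 receptor genes with enough UMIs in these cells, 2 were at least 2-fold higher after Lws2 ablation than in the control (with grik4 among them, 7.41% beside 7.79% of all genes) and 2 were lower (grm2b and glrbb, 7.41% beside 2.38%). For the library labelled Sws2 2 of 25 were higher (8.00% beside 7.12%) and 8 were lower (32.0% beside 5.51%), among them gabrb2a, glrbb, gria1a, grin1a, grin1b, grm2b and grm3. In the same cells the neuron marker elavl3 stood at 16.8, 16.5 and 5.63 CPM and tfap2a at 7.33, 3.92 and 1.69 CPM. The bipolar marker vsx1 went the other way, at 3.05, 8.33 and 5.13 CPM. The part of RNA from neurons in these low counts was not tested.

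Photoreceptor lineage-like cells were marked by a GABA-A receptor subunit. The alpha subunit gene gabra6a stood 29.0 times above the next class, with 1 CPM added, and was found in 4.40% of these cells after thinning (13.7% unthinned). In resting glia-like cells it was found in 0 of 11592 thinned cells, and without thinning these cells held 5 gabra6a UMIs, or 0.0774 CPM (0.0251 to 0.181). It lay mostly in cluster 20, which carries the cone opsin opn1lw2, at 129 CPM (97.9 to 168), 121 CPM (98.7 to 147) and 83.3 CPM (57.0 to 118) in the control, Lws2 and labelled Sws2 libraries. These 3 intervals overlapped. In cluster 15, the other cluster of the class, gabra6a held 13.6 CPM (5.00 to 29.6), 2.12 CPM (0.578 to 5.43) and 0.785 CPM (0.0199 to 4.37).

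Few other receptor genes were seen in photoreceptor lineage-like cells. The NMDA receptor gene grin1b held 13.6, 14.4 and 5.21 CPM in cluster 20. Of 9 members with enough UMIs in the pair of clusters, 2 were at least 2-fold higher in cluster 20 in each library, gabra6a among them (22.2%, beside 5.39% of all genes), and 1, gabrr2a, was lower in each library (11.1%, beside 2.93%). The gabrr2a call rests on few counts, with 1, 2 and 0 UMIs in cluster 20 against 4, 12 and 4 UMIs in cluster 15. At 5258038 UMIs for the class, a gene with no UMI could have had a level of up to 0.571 CPM.

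Bipolar-like cells carried a small set of receptor genes at high levels, above all for NMDA and GABA receptors. Their NMDA genes summed to 723, 491 and 394 CPM in the control, Lws2 and labelled Sws2 libraries. GABA-A genes summed to 618, 264 and 152 CPM and rho genes to 336, 306 and 275 CPM. The genes that bipolar-like cells led included 4 of the 5 rho subunit genes, the NMDA genes grin2ca and grin2cb and the kainate gene grik1a. Their highest member was grin1b, a copy of the gene for the NMDA subunit GluN1 that every NMDA receptor needs, at 684 CPM (642 to 729), 464 CPM (442 to 487) and 371 CPM (350 to 394). After thinning, grin1b was found in 34.2% (32.5 to 35.9) of bipolar-like cells and 0.59% of resting glia-like cells, and gabrr2a in 19.6% and 0.04%. The unthinned shares in bipolar-like cells were 47.7% and 29.0%, with 314 cells left out by the thinning. The ratio of the leading class to the next was 32.9 for gabrr3b, 20.2 for gabrr2a and 6.01 for grin2ca.

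Most of this RNA lay in cluster 4, which carries cabp5b, rather than in cluster 5, where gnb3a came first among the leading genes. Both clusters carried gnb3a as a marker. Cluster 4 held 462, 596 and 535 cells and cluster 5 held 239, 580 and 533 cells, with median depths of 1360 and 2936.5 UMIs. Of 22 receptor genes with enough UMIs, 17 were at least 2-fold higher in cluster 4 in each of the 3 libraries (77.3%, beside 14.4% of all genes) and 0 were lower (beside 3.77%). The gene grin1b was not among the 17, since its ratio in the control library was 1.78. In cluster 5 grin1b was highest in the control, at 525, 201 and 131 CPM in the control, Lws2 and labelled Sws2 libraries. The rho subunit gene gabrr2a stood at 515 CPM (460 to 575), 573 CPM (526 to 622) and 518 CPM (469 to 570) in cluster 4 and at 73.3, 52.2 and 42.9 CPM in cluster 5. The other rho subunit genes of cluster 4 were gabrr3b, at 95.9, 140 and 133 CPM, and gabrr1, at 19.5, 18.4 and 38.8 CPM. The mGluR6 gene grm6b stood at 106, 59.4 and 27.5 CPM in cluster 4, at 63.9, 49.8 and 20.6 CPM in the smaller bipolar-like cluster 22 and at 5.00, 6.14 and 1.79 CPM in cluster 5. It was not particular to bipolar-like cells. Among the classes, with the libraries summed, grm6b was highest in ganglion-like cells at 57.5 CPM and next in amacrine-like cells at 54.8 CPM.

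Within cluster 4 the receptor genes divided into those whose levels separated the libraries and those whose intervals overlapped. For grin1b, 933 CPM (858 to 1012), 999 CPM (937 to 1060) and 882 CPM (818 to 950) gave log2 ratios to the control of 0.10 (−0.05 to 0.25) and −0.08 (−0.24 to 0.08). For gabrr2a those ratios were 0.15 (−0.05 to 0.36) and 0.01 (−0.21 to 0.22). In contrast the GABA-A alpha subunit gene gabra4 stood at 185 CPM (153 to 222), 121 CPM (100 to 145) and 27.5 CPM (17.3 to 41.7), with no overlap of intervals, and grik1a was in the same order at 130 CPM (103 to 162), 38.9 CPM (27.6 to 53.4) and 17.5 CPM (9.58 to 29.4), where the last 2 intervals overlapped. For grm6b the log2 ratio to the control was −0.83 (−1.37 to −0.30) in the Lws2 library and −1.94 (−2.71 to −1.22) in the library labelled Sws2. Among the glycine receptor genes, the beta subunit gene glrba was in that order too, at 82.9 CPM (61.7 to 109), 26.6 CPM (17.4 to 39.0) and 10.0 CPM (4.32 to 19.7), but its copy glrbb, at 185, 185 and 149 CPM, and glra3, at 69.9, 40 and 56.3 CPM, were not, and glra3 in cluster 22 was highest in the library labelled Sws2, at 22.8, 28.4 and 91.4 CPM.

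**Figure D4:**
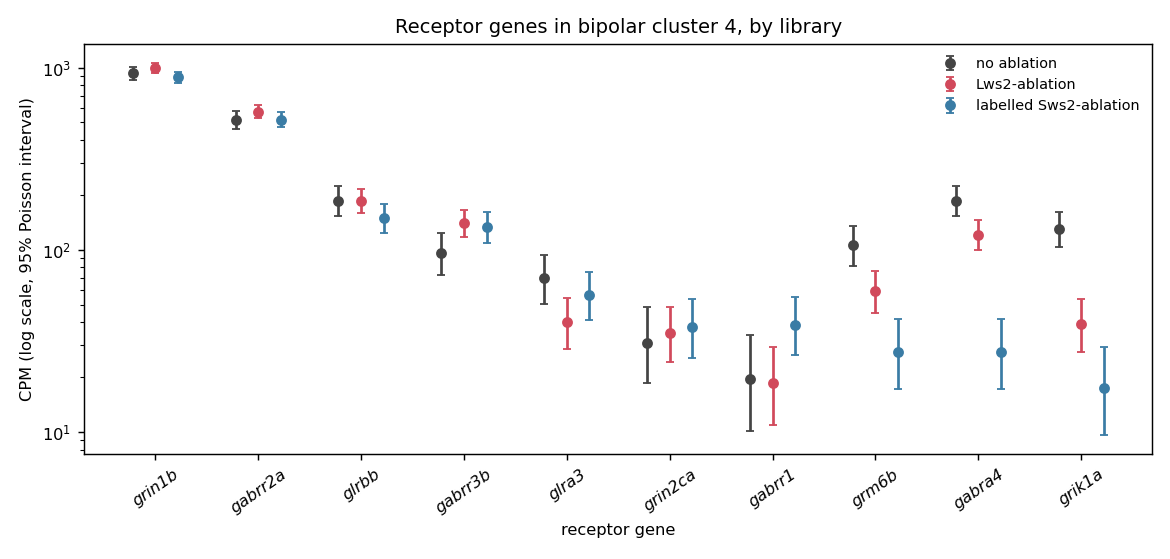
CPM of 10 receptor genes in bipolar-like cluster 4, on a log axis, with 1 point per library and 95% counting intervals. The points of grin1b and gabrr2a lie together at about the same height, and those of gabra4, grm6b and grik1a are highest in the control and lowest in the library labelled Sws2. The intervals of grik1a overlap between the last and the Lws2 library.

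Over the whole bipolar-like class, 7 of 19 members were at least 2-fold lower after Lws2 ablation than in the control (36.8%, beside 8.16% of all genes) and 0 higher (beside 6.17%). In the library labelled Sws2 9 of 19 were lower (47.4%, beside 12%) and 0 higher (beside 5.78%). Cluster 4, richer in receptor RNA than cluster 5, held 462 of 755, 596 of 1348 and 535 of 1210 cells of the class. Levels and counts over the whole class therefore move with this mix, and its part in them was not tested. Genes of the mGluR6 cascade in cluster 4 included some that were ordered like grm6b. These included nyx, which encodes the synaptic protein nyctalopin, at 192, 73.8 and 27.5 CPM, and the G protein gene gnao1b at 2203, 1214 and 518 CPM. The channel gene trpm1a was in that order too, at 109, 91.2 and 53 CPM. The G protein beta gene gnb3a, at 1467, 1823 and 1427 CPM, was not lower after Lws2 ablation. Over the bipolar-like class the cascade genes gng13b, at 652, 1451 and 1083 CPM, and rgs7b, at 2.09, 4.58 and 9.27 CPM, were lowest in the control. The control value of rgs7b rests on few UMIs. The glial gene glula differed between libraries in the bipolar-like class too, at 1374, 373 and 163 CPM, and its part in these differences was not tested.

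Amacrine-like cells, cluster 12, held NMDA, glycine, GABA-A and AMPA receptor genes, with family sums of 318, 207, 157 and 121 CPM over the libraries. With the libraries summed, where the Lws2 library gave 4116059 of 5691673 UMIs, these cells led none of the genes by 2-fold. In the control library alone amacrine-like cells were highest for glrbb, grin2aa and grm6b among other genes, but for these in neither other library. Their highest members were grin1a, at 203 CPM (174 to 236), 135 CPM (124 to 147) and 102 CPM (80.1 to 129), and grin1b, at 482 CPM (436 to 530), 58.3 CPM (51.2 to 66.2) and 112 CPM (88.8 to 139). The control library was highest for both and was more than 4 times the others for grin1b. The glycine receptor beta gene glrbb followed with 168, 54.4 and 61.6 CPM and the alpha gene glra3 with 110, 30.4 and 16.8 CPM. For gria3a, an AMPA receptor subunit, 46.4 CPM (33.2 to 63.2), 32.3 CPM (27.1 to 38.3) and 35 CPM (22.7 to 51.7) overlapped. The gene grm6b was found in these cells at 68.5, 56.1 and 30.8 CPM.

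Of 31 receptor genes with enough UMIs, 18 were at least 2-fold lower in amacrine-like cells after Lws2 ablation than in the control (58.1%, beside 23.5% of all genes) and 1, gria2a, was higher (3.23%, beside 11.1%). For the library labelled Sws2 17 of 23 were lower (73.9%, beside 27.7%) and 0 were higher (beside 7.2%). The control amacrine-like cells, 163 in number, held glula at 8863 CPM against 421 and 795 CPM in the other 2 libraries. The part of such differences between the cells in these values was not tested.

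Ganglion-like cells, cluster 18, led 3 NMDA genes, 2 GABA-A genes, 2 metabotropic genes and 1 AMPA gene, and NMDA subunits made up the largest family sum, at 892 CPM over the libraries. In them grin1a stood at 304 CPM (266 to 345), 536 CPM (501 to 573) and 569 CPM (498 to 647), lower in the control than in both ablation libraries, and it was found in 42.3% (37.7 to 47.0) of these cells after thinning (69.3% unthinned) against 0.48% of resting glia-like cells. Its copy grin1b was highest in the control, at 344 CPM (304 to 388), 204 CPM (182 to 227) and 234 CPM (190 to 286). The NMDA gene grin2ab, at 67.8 CPM (50.6 to 88.9), 123 CPM (107 to 142) and 210 CPM (168 to 259), separated all 3 libraries. The AMPA gene gria4a was higher in the library labelled Sws2 alone, at 59.9 CPM (43.9 to 80.0), 64.2 CPM (52.4 to 77.8) and 183 CPM (144 to 230). The GABA-A gene gabrb1, led 6.79-fold by this class, had the same order with 19.5, 23.0 and 78.2 CPM.

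In this class 4 of 30 members were at least 2-fold higher after Lws2 ablation than in the control (13.3%, beside 9.77%), namely gabra2a, gria3a, grin2aa and grm2a, and 2 were lower, gria1a and grm2b (6.67%, beside 7.19%). In the library labelled Sws2 7 of 22 were higher (31.8%, beside 7.85%), namely gabrb1, gria3a, gria3b, gria4a, grin2aa, grin2ab and grm1a, and 2 were lower (9.09%, beside 13.8%). The class numbered 134, 267 and 84 cells, and its glula level was 13488, 4458 and 2953 CPM, the control highest. In the control library glula stood at 18013 CPM in resting glia-like cells and 15509 CPM in cluster 23, which was set apart as mixed. The part of glial RNA in the differences between libraries in ganglion-like cells was not tested.

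The untyped neurons led 3 NMDA genes, 2 AMPA genes, 2 delta genes and 1 gene each for glycine, kainate and metabotropic receptors. Cluster 14, with 153, 722 and 12 cells, held 22 of the 62 receptor genes at their highest level among 24 clusters (35.5%, beside 13.1% of all genes). Bipolar-like cluster 4 held 18 so (29.0%, beside 10%), ganglion-like cluster 18 held 12 (19.4%, beside 3.55%) and cluster 24 held 6 (9.68%, beside 15.1%). Among the genes highest in cluster 14, the AMPA gene gria2b stood at 124 CPM (92.4 to 162), 155 CPM (141 to 171) and 258 CPM (124 to 474) and the AMPA gene gria1a at 136 CPM (103 to 176), 119 CPM (106 to 133) and 129 CPM (41.9 to 301). The intervals of the libraries overlapped for both genes, and the values of the library labelled Sws2 rest on 10 and 5 UMIs. After thinning, gria2b was found in 11.6% of untyped neurons (26.3% unthinned) and 0.02% of resting glia-like cells. The NMDA genes grin2bb, at 40.4, 60.1 and 103 CPM, and grin2db, at 47.6, 35.3 and 25.8 CPM, were also highest here.

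Cluster 24 was seen only in the first 2 libraries, with 59 and 133 cells and none in the library labelled Sws2. Most of the 6 receptor genes that were highest in it were for glycine receptors, and the others were grik5 and grm8b. The alpha subunit gene glra4b stood at 190 CPM (146 to 242) without ablation and 314 CPM (274 to 358) after Lws2 ablation, glra1 at 130 and 137 CPM, glra3 at 85.9 and 93.0 CPM, and the beta subunit gene glrba at 29.6 and 52.1 CPM. The kainate receptor gene grik5 stood at 38.5 CPM (20.5 to 65.8) and 53.5 CPM (37.9 to 73.5), and its leading class was 8.25 times the next. The intervals of the control and Lws2 libraries overlapped for grik5, glra1, glra3 and glrba but not for glra4b.

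Progenitor-like cells held little receptor RNA. In neurogenic precursor-like cells grin2ab stood at 5.52 CPM (3.22 to 8.84), 9.46 CPM (8.03 to 11.1) and 2.29 CPM (1.44 to 3.47), and most of it lay in cluster 19, which carries the retinal ganglion cell factor gene atoh7, at 74.7 CPM (40.8 to 125), 51.6 CPM (43.4 to 60.8) and 26.4 CPM (16.3 to 40.4). The GluN1 genes grin1a and grin1b were found in them at 2.92, 7.87 and 2.29 CPM and at 15.9, 7.26 and 2.71 CPM. In cycling progenitor-like cells grin1b stood at 1.66 CPM (0.342 to 4.84), 5.50 CPM (4.08 to 7.25) and 1.60 CPM (0.876 to 2.69).

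Zebrafish carry many of these genes as duplicate copies named a and b. For 19 pairs with at least 50 UMIs together the share of the a copy was compared, which does not depend on depth or on the number of cells. Over all kept cells this share still moves with the mix of classes. A single copy held at least 75% of the UMIs in 11 pairs. The a copy did so in 5, namely gabra6a with 88.1%, gabrr2a with 96.4%, gria1a with 83.7%, gria4a with 79.7% and grm1a with 87.9%. The b copy did so in 6, where the a share was 5.0% for gabrr3a, 10.4% for glra4a, 15.7% for glrba, 18.1% for grin2da, 1.2% for grm2a and 3.3% for grm6a. Reads from copies with like 3′ ends could be split or dropped in the counting, so a share is uncertain where the copies are near-identical there.

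The remaining pairs shared their UMIs between copies, and the share moved with the cell class. For grin1a and grin1b the a share was 1.1% (0.8 to 1.5) in bipolar-like cells, 52.2% (49.7 to 54.7) in amacrine-like cells and 65.9% (63.8 to 67.9) in ganglion-like cells. In bipolar-like cells it was 1.0%, 1.3% and 1.0% in the 3 libraries. In amacrine-like cells it was 29.7% (26.0 to 33.5) without ablation, 69.8% (66.5 to 73.0) in the Lws2 library and 47.7% (39.6 to 55.9) in the library labelled Sws2, with no overlap of intervals. In ganglion-like cells it was lower in the control, at 46.9% (42.4 to 51.4), than after Lws2 ablation at 72.5% (69.8 to 75) or in the library labelled Sws2 at 70.8% (65.6 to 75.7).

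AMPA pairs showed a like division. For gria2a and gria2b the a share was 59.0% (50.3 to 67.3) in amacrine-like cells and 12.4% (9.8 to 15.4) in untyped neurons, and for gria3a and gria3b it was 77.6% (72.0 to 82.6) and 31.8% (24.4 to 39.9). The NMDA pair grin2aa and grin2ab gave 60.1% (53.4 to 66.5) in amacrine-like and 21.3% (17.5 to 25.5) in ganglion-like cells. For grm2a and grm2b the a share was 0.1% (0.1 to 0.2) in resting glia-like cells and 24.8% (19.8 to 30.4) in untyped neurons. Over all kept cells the pairs grid1a and grid1b and grm8a and grm8b had a shares of 47.4% and 25.9%, and grin2ca and grin2cb had 62.7%.

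**Figure D5:**
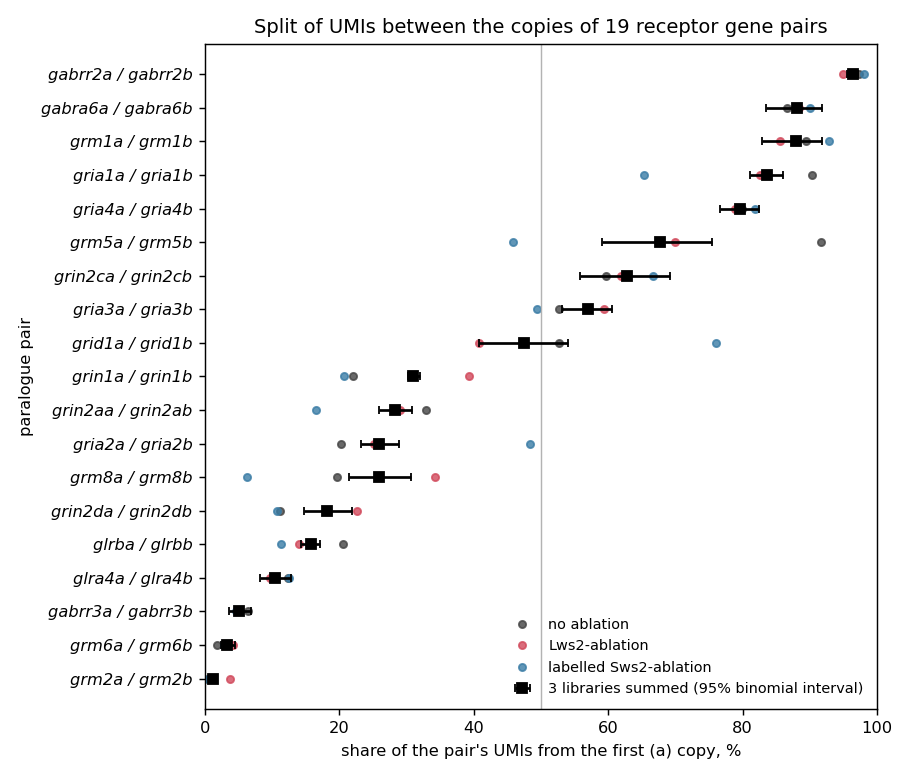
Share of the UMIs of each a and b pair that belonged to the a copy, over all kept cells, for 19 pairs, as squares for the 3 libraries summed with exact 95% binomial intervals and as points for each library. In 11 pairs a single copy held at least 75% of the UMIs of the 3 libraries together, and the a share of grin1 was higher after Lws2 ablation (39.3%) than in the control (22%) or the library labelled Sws2 (20.7%). These shares over all kept cells move with the mix of classes. Within amacrine-like and within ganglion-like cells the a share of grin1 was higher in the library labelled Sws2 than in the control.

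Over all kept cells, part of the receptor genes were lower in the library labelled Sws2 than in the control. Of 55 members 20 were at least 2-fold lower there than in the control (36.4%, beside 9.74% of all genes) and 0 were higher (beside 4.51%). Without mitochondrial and ribosomal protein genes in the total, a scaling that moves every log2 ratio of this comparison by 0.42, 13 were lower and 1 was higher. After Lws2 ablation 2 of 61 members were higher than in the control, gria2a and gria2b (3.28%, beside 7.44%), and 1 was lower, grm2b (1.64%, beside 4.7%). Under the same change of scaling, which moves these ratios by 0.22, 7 were higher and 1 lower. The median log2 ratio of the members was 0.25 after Lws2 ablation, where that of all genes was 0.16, and −0.58 in the library labelled Sws2, where that of all genes was −0.06. Both comparisons share the control library. Between the Lws2 library and the library labelled Sws2, 17 of 60 members were higher in the former (28.3%, beside 5.84% of all genes) and 0 were lower (beside 0.726%).

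Between the control and the library labelled Sws2, gabrb2a went from 7.08 to 0.963 CPM, glra4b from 3.45 to 0.404 CPM, gria1a from 5.22 to 0.616 CPM and grm3 from 2.51 to 0.212 CPM. Those genes stood at 7.57, 6.66, 6.56 and 0.768 CPM after Lws2 ablation. The AMPA gene gria2a stood at 2.51 CPM after Lws2 ablation against 0.628 CPM in the control. The values for gria3a, 3.88 against 1.64 CPM, and for grik1a, 1.64 against 4.28 CPM, did not pass the 2-fold rule with 1 CPM added. For gria2b the levels were 2.49, 7.46 and 0.597 CPM, while within cluster 14 they overlapped as given above. The cells of that cluster made up most of the untyped neurons, whose share of kept cells differed between libraries in the same order. The ratios of the library labelled Sws2 to the control were among the highest for the rho gene gabrr3b, at 5.22 against 2.46 CPM, and the GABA-A gene gabrb1, at 1.27 against 0.628 CPM, but neither passed that rule. On these ratios grm2b was 0.225 of the control after Lws2 ablation (0.215 to 0.235) and 0.256 in the library labelled Sws2 (0.244 to 0.269), further from 1 than within resting glia-like cells.

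Genes that act with these receptors were counted in the same way. Of 22 genes for transmitter synthesis and uptake, 13 were led by a single class (59.1%, beside 14.3% of all genes), 4 of them by bipolar-like cells and 3 each by photoreceptor lineage-like cells and untyped neurons. Of 45 genes for receptor anchoring and auxiliary subunits, 12 were led by a single class (26.7%), and untyped neurons led 10 (22.2%, beside 4.73% of all genes). Of 16 genes of the mGluR6 cascade, 9 were led (56.2%), 5 by bipolar-like cells (gnao1b, gnb3a, gng13b, trpm1a and nyx), 3 by photoreceptor lineage-like cells and 1 by amacrine-like cells. The cluster names rest in part on gnb3a, gng13b, trpm1a and nyx, which are bipolar markers here. The glial glutamate transporter gene slc1a2b was highest in resting glia-like cells, at 2361 CPM over the libraries, although only 1.81 times the next class.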

How the data were processed

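The deposited tables hold counts: UMI counts per gene and cell, made by the authors with Cell Ranger 2.1.1 on genome build GRCz11 according to the submitters' processing notes, whereas the matrix headers name software version 3.0.2. Cells were kept by the limits of the study on gene number and mitochondrial UMIs, with a minimum of 200 genes in each library. The study also left out cell types not derived from Müller glia, a step that was not applied here. The upper limits were 3500 genes and 20% mitochondrial UMIs without ablation, 4500 genes and 35% for the Lws2 library, and 4000 genes and 30% for the Sws2 library. Of 8336, 10557 and 7896 barcodes, 8190, 10430 and 7851 were kept, with 41397211, 74215043 and 51943376 UMIs. The 3 libraries were integrated in Seurat 5.3.0 under R 4.3.3 (2000 variable features without receptor genes, 30 anchor dimensions, 15 principal components, resolution 0.8).

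A cluster took the name of the class with the most markers, at least 3, each in 25% of its cells and 2-fold above the other clusters with 10 CPM added. After the clusters were seen, 3 rules were added: a name on 3 markers with none among the 10 leading genes was dropped, glial clusters with neuron markers were set apart as mixed (233 cells), and unnamed clusters with 3 or more neuron markers were called untyped neurons. The 2816 cells of other clusters without a name, and the microglia-like and lens-like clusters, entered no class. Names rest on these markers and can differ from those of the study.

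UMIs were summed per class and library in Python 3.11.15 with numpy 2.4.6, pandas 2.3.3 and scipy 1.17.1. Levels have exact Poisson, shares exact binomial and ratios exact conditional intervals at 95%, which cover counting error only. The limit for a gene without a UMI is 3 counts. Ratios between libraries use genes with at least 20 UMIs in the cells compared, and a 2-fold difference is judged with 1 CPM added to both levels. The interval steps and the 2-fold rule were tested on simulated data, where the intervals of the ratio of the Lws2 library to the control held the true value for 97.1% of 1976 genes. The simulated counts held counting error alone, so this share says nothing of the spread between cells or libraries. The 2-fold rule was tried there only on changed genes at 5 CPM or more. Doublets were scored with Scrublet in scanpy 1.11.5. Its automatic threshold marked 3, 0 and 0 cells and was not used, so doublets stayed in, and removal of the 537, 870 and 493 cells with the highest scores is an alternative.

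Genes were named by rule: the 3 highest members of each class, the member of each family with the most UMIs, members with at least 100 UMIs and a leading class 4 times the next, the 3 highest and 3 lowest ratios of each pair of libraries, and both copies of pairs with at least 200 UMIs. The others named (gabra2a, gabra4, glra3 and the genes listed with a count) were chosen after their values were seen. The members and all lists were chosen with earlier results of these data known. A few members are counted but not reported by name here. Sequences and genome positions are not used here. Figures were drawn with matplotlib 3.10.9.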

Additional observations from a re-analysis of the deposited data

How the results depend on the processing

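No paired analysis was possible because each group has 1 library. Of the recomputed values 118 stayed on their side of the threshold or within the set range, 32 counts or shares moved and 7 ratios were no longer 2-fold. The cause was not tested. Of the receptor genes, 17 in place of 27 were led by a single class at a ratio of 4 and 17 among those with at least 100 UMIs. Bipolar-like cells led 5 in place of 8 at a ratio of 4, among genes with at least 100 UMIs and with 5 CPM added. Amacrine-like, ganglion-like and untyped neurons led 28 in place of 18 at a ratio of 1.5, and 11 at a ratio of 4 and among genes with at least 100 UMIs. Resting glia-like cells led 1 in place of 0 with likely doublets removed, with the libraries merged without integration, at resolutions 0.4 and 1.2, with cells thinned to 1000 UMIs and at a ratio of 1.5. With 1 library left out, the genes led by any class numbered 27 to 31 and those led by bipolar-like cells 6 to 10.

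Between libraries, counts over all kept cells moved with the CPM added and with the scaling. After Lws2 ablation against the control, the 2 higher genes became 9 with thinned cells, 7 without mitochondrial and ribosomal protein genes, 0 with 5 CPM added and 14 with 0.1 CPM added, and the 1 lower gene became 2 with likely doublets removed and 3 with 0.1 CPM added. For the library labelled Sws2 against the control, the 0 higher genes became 2 with thinned cells, 1 without mitochondrial and ribosomal protein genes and 3 with 0.1 CPM added. The 20 lower genes became 13, 13 and 31 under the same settings and 2 with 5 CPM added. The 17 genes higher in the Lws2 library than in the library labelled Sws2 became 6 with 5 CPM added and 38 with 0.1 CPM added.

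For grm2b in resting glia-like cells, the log2 ratio to the control after Lws2 ablation moved from −1.14 to −0.87 with merged libraries and −0.89 at resolution 1.2. For the library labelled Sws2 it moved from −1.07 to −0.67 with merged libraries, −0.94 at resolution 0.4, −0.76 at resolution 1.2, −0.83 without mitochondrial and ribosomal protein genes and −0.93 without clusters 8 and 9, a setting chosen after seeing the data. It stayed negative in all of these but was no longer 2-fold. Thinned to 2000 UMIs, the shares of these cells with grm2b were 34.0%, 16.2% and 16.3% in place of 20.2%, 9.77% and 8.85%. Depth limits the ganglion-like class most, where a gene without a UMI can have up to 1.08 CPM, and the 12 untyped neurons of the library labelled Sws2.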

Other observations

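Cluster 23, which held 119, 75 and 39 cells in the control, Lws2 and labelled Sws2 libraries, carried 11 resting glia markers and 6 bipolar markers and entered no class. It held the glial receptor gene grm2b at 190 CPM (161 to 223), 96.3 CPM (74.0 to 123) and 126 CPM (90.2 to 170). The bipolar receptor genes stood beside it, with grin1b at 176 CPM (149 to 208), 131 CPM (105 to 162) and 61.3 CPM (37.4 to 94.7) and gabrr2a at 84.5, 107 and 49.0 CPM. Automatic doublet calling gave no working threshold in these libraries, so whether single cells or pairs of cells carried both sets was not tested.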
